A study of Mus musculus with 6 samples.

Results

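The 10 genes described here relay or restrain cytokine signals in macrophages. They are 5 interferon regulatory factors (Irf1, Irf2, Irf3, Irf4 and Irf5), 3 STAT transcription factors (Stat3, Stat5a and Stat6) and 2 suppressors of cytokine signalling (Socs1 and Socs3). The set was chosen by name, as regulators of macrophage polarization, and members of these families classed as type I interferon-induced were left out. That choice does not mean that none of the 10 responds to type I interferon. All 10 were found among the 55327 usable rows of the deposited count table, and all 10 passed the filter on low counts, which kept 14987 genes. The libraries came from macrophages sorted from mouse calf muscle 3 days after hindlimb ischemia, in which the blood flow of the leg is cut off. One group of 3 libraries carries the genotype label WT and the other group of 3 carries pfkfb3-ko (KO below), and the series' title and design text place the deletion in endothelial cells (EC). All mice had the strain label 129S1/Sv * 129X1/SvJ * C57BL/6 * CBA and were given tamoxifen, 1 mg on each of 5 days, at least 7 days before the experiment. The labels used here give neither the driver of the deletion, nor the age of the mice, nor whether a library was 1 animal or a pool, so p-values measure the spread between libraries, which may be technical.

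Cytokine receptors of this class have no kinase of their own and rely on Janus kinases (JAKs) bound to their tails. Once a cytokine binds, the JAKs phosphorylate STAT proteins, which pair up, enter the nucleus and bind a short palindrome known as the GAS element, while interferon regulatory factors bind a related repeat known as the ISRE. SOCS genes are themselves turned on by STATs, and their proteins shut the receptor complex down again, which closes a feedback loop. These proteins are controlled to a large extent by phosphorylation, which RNA levels do not measure.

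Levels are given as CPM, counts scaled to a common library size with TMM factors, and libraries are listed in the order of their replicate numbers. Total counts ranged from 21029637 to 29060584 in WT and from 18853712 to 21070130 in KO, and counts in protein-coding genes from 16976422 to 22726111 and from 9168139 to 12407034, so KO values rest on fewer counts. The non-coding RNA Gm23935 took 13.7% to 16.8% of the counts in WT libraries and 31.6% to 46.3% in KO libraries. Pfkfb3 itself was at 70.9, 101 and 82.4 CPM in the 3 WT libraries and at 55.5, 59.3 and 160 CPM in the 3 KO libraries, which checks nothing about an endothelial deletion in sorted macrophages. The female-specific RNA Xist stood at 154 CPM in KO replicate 1, 171 CPM in KO replicate 2 and 0.465 CPM or less elsewhere, so sex and genotype overlap in these libraries. Of 10 macrophage markers, Csf1r was higher in KO (log2 fold change 1.05) and Cd68 lower (-0.74), where 6.64% of all tested genes were called. The summed level of all 10 was 6548 to 9400 CPM in WT and 9223 to 9551 CPM in KO.

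None of the 10 regulators differed between KO and WT at an adjusted p under 0.05 in edgeR's quasi-likelihood test, where 6.64% of all tested genes did. All 10 log2 fold changes (KO over WT) lay between -0.32 and 0.51, with a median of -0.09 against 0.01 over all tested genes. Their median size without sign was 0.16, against 0.31 over all tested genes. The members nearest to a difference were Irf1 and Irf3, both with a higher mean in KO except when no scaling factor was used (log2 fold changes of -0.10 and -0.20, where the median of all genes moved from 0.01 to -0.60), and theirs were the 2 unadjusted p-values under 0.05 among 10, a share below the 23.5% of all tested genes. The same pair made up the members whose WT and KO libraries did not overlap, against 31.5% of all tested genes. DESeq2 called 0 of the 10 members and 10.1% of the genes to which it gave an adjusted p. Limma-voom with sample weights called 3 (Irf1, Irf3 and Socs3, all higher), a share near the 32.4% of all genes that it called.

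**Figure D1:**
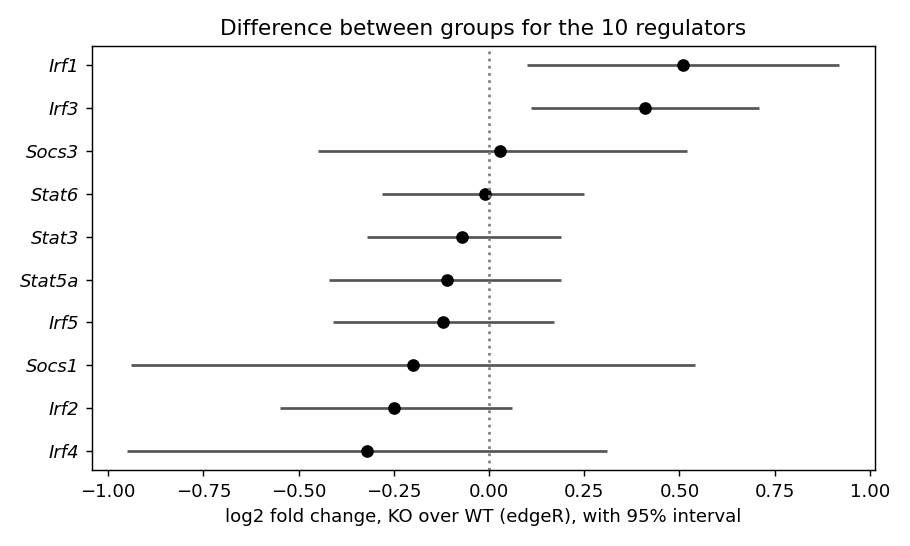
Log2 fold change of KO over WT for each of the 10 regulators, from edgeR's quasi-likelihood fit, with its 95% interval as a horizontal line. The intervals of Irf1 and Irf3 lie to the right of 0, the other 8 span it, and none of the 10 adjusted p-values was under 0.05.

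Among the signal transducers, Stat3, which carries signals of IL-6 and IL-10, was at 149, 156 and 151 CPM in the 3 WT libraries and at 138, 147 and 150 CPM in the 3 KO libraries. The groups overlapped, and all 6 libraries lay close together. The fold of KO over WT was 0.95, with a 95% interval of 0.80 to 1.14 (edgeR adjusted p = 0.77). Stat6, the transducer of IL-4 and IL-13 and a driver of alternative macrophage activation in mice, was at 152, 167 and 160 CPM in WT and at 166, 163 and 146 CPM in KO. Its KO libraries lay within or next to the WT range, with the lowest value in KO replicate 3. Here the fold was 0.99, with an interval of 0.82 to 1.19 (edgeR adjusted p = 0.96). Stat5a, which acts downstream of GM-CSF, was at 23.1, 24.5 and 24.2 CPM in WT and at 20.6, 24.1 and 21.7 CPM in KO. KO replicates 1 and 3 lay below all WT libraries and KO replicate 2 between them. The fold was 0.92, with an interval of 0.75 to 1.14 (edgeR adjusted p = 0.66). The SD between WT libraries was 2.62%, 4.72% and 3.13% of the mean for Stat3, Stat6 and Stat5a, the steadiest levels of the set together with Irf3. Stat3 and Stat5a lie tail to tail on chromosome 11, at 100885098 to 100939540 on the minus strand and 100859351 to 100885169 on the plus strand (GRCm38), and their exons overlap. Stat5a is also a close copy of Stat5b, and neither the rule for shared reads nor the strand setting is known here, so the split of reads among these 3 genes is uncertain.

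Of the interferon regulatory factors, Irf1, a transcriptional activator induced by interferon-gamma, was at 42.3, 51.4 and 55.9 CPM in the 3 WT libraries and at 61.2, 63.1 and 89.2 CPM in the 3 KO libraries. Every KO library was above every WT library, and KO replicate 3 stood well above the other KO libraries. The group means were 49.9 ± 6.96 and 71.2 ± 15.7 CPM (SD, n = 3 each). That gave a log2 fold change of 0.51 (SE 0.18, 95% interval 0.10 to 0.92) with an edgeR adjusted p of 0.13. Over the leave-outs it ran from 0.32 without KO replicate 3 (edgeR adjusted p = 0.17) to 0.60 without WT replicate 3 (edgeR adjusted p = 0.16). With sex as a term the value was 0.84 (edgeR adjusted p = 0.029), past the threshold, and it then rests on KO replicate 3 against WT. Gm17334, a gene on the opposite strand whose exons overlap those of Irf1 (chromosome 11, 53770014 to 53778374), was at 16.1 CPM in KO replicate 3 and at 3.68 to 5.95 CPM in the other 5 libraries. Its part in the Irf1 counts was not tested.

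Irf2, which binds the same sites as IRF1 and antagonizes it, was at 88.5, 76.2 and 67.6 CPM in WT and at 66.4, 67.8 and 61.5 CPM in KO. KO replicate 2 reached just above the lowest WT library, so the groups met at their edges. The fold was 0.84, with a 95% interval of 0.68 to 1.04 (edgeR adjusted p = 0.31). Irf3, a constitutive factor that the kinase TBK1 activates after viral sensing, was at 19.0, 19.9 and 19.0 CPM in WT and at 24.5, 24.5 and 27.8 CPM in KO. The groups did not overlap, and the WT libraries were nearly level. The log2 fold change was 0.41 (SE 0.13, 95% interval 0.11 to 0.71, edgeR adjusted p = 0.10), a fold of 1.33. Bcl2l12, whose exons overlap those of Irf3 on the opposite strand (chromosome 7, 44997648 to 45002848), stood at no more than 2.08 CPM in any library.

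Irf4, which is induced by IL-4 and needed for alternative activation of mouse macrophages, was at 19.4, 13.6 and 8.54 CPM in WT and at 12.3, 9.84 and 11 CPM in KO. The WT libraries spanned more than the KO libraries, which all lay inside the WT range. The fold was 0.80, with the wide interval of 0.52 to 1.24 (edgeR adjusted p = 0.54), and the log2 fold change ran from -0.57 without WT replicate 3 (edgeR adjusted p = 0.2) to -0.00 without WT replicate 1. Irf5, a factor downstream of Toll-like receptors that promotes inflammatory cytokines such as IL-12, was at 196, 184 and 168 CPM in WT and at 156, 163 and 185 CPM in KO. The groups overlapped, with KO replicate 3 above the middle WT library. The fold was 0.92, with an interval of 0.75 to 1.12 (edgeR adjusted p = 0.61). Exons of Nab2 overlap those of Stat6 in the same way, with Nab2 at 21.4 to 33.3 CPM. Exons of Tnpo3 overlap those of Irf5 on the opposite strand, and Tnpo3 was at 42.7 to 63.8 CPM across the libraries.

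Neither of the 2 feedback inhibitors was separate between genotypes. Socs3, which docks on the IL-6 receptor chain gp130 and blocks JAK activity there, was at 333, 203 and 230 CPM in the 3 WT libraries and at 275, 304 and 206 CPM in the 3 KO libraries. The groups overlapped over nearly their whole range, with WT replicate 1 the highest library. The fold was 1.02, with a 95% interval of 0.73 to 1.43 (edgeR adjusted p = 0.95), and the sign of its log2 fold change was positive in 8 of 17 alternative fits and negative in 9. Socs1, the inhibitor of interferon-gamma and IL-4 signalling, was at 4.03, 2.14 and 2.96 CPM in WT and at 2.40, 3.14 and 2.39 CPM in KO. These values rest on only 37 to 104 counts per library, and the groups overlapped. Its fold of 0.87 had an interval of 0.52 to 1.45 (edgeR adjusted p = 0.76), the widest of the 10 together with that of Irf4. A change in Socs1 of up to 1.45-fold upward, or down to 0.52-fold, thus lies within the 95% interval at this depth.

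**Figure D2:**
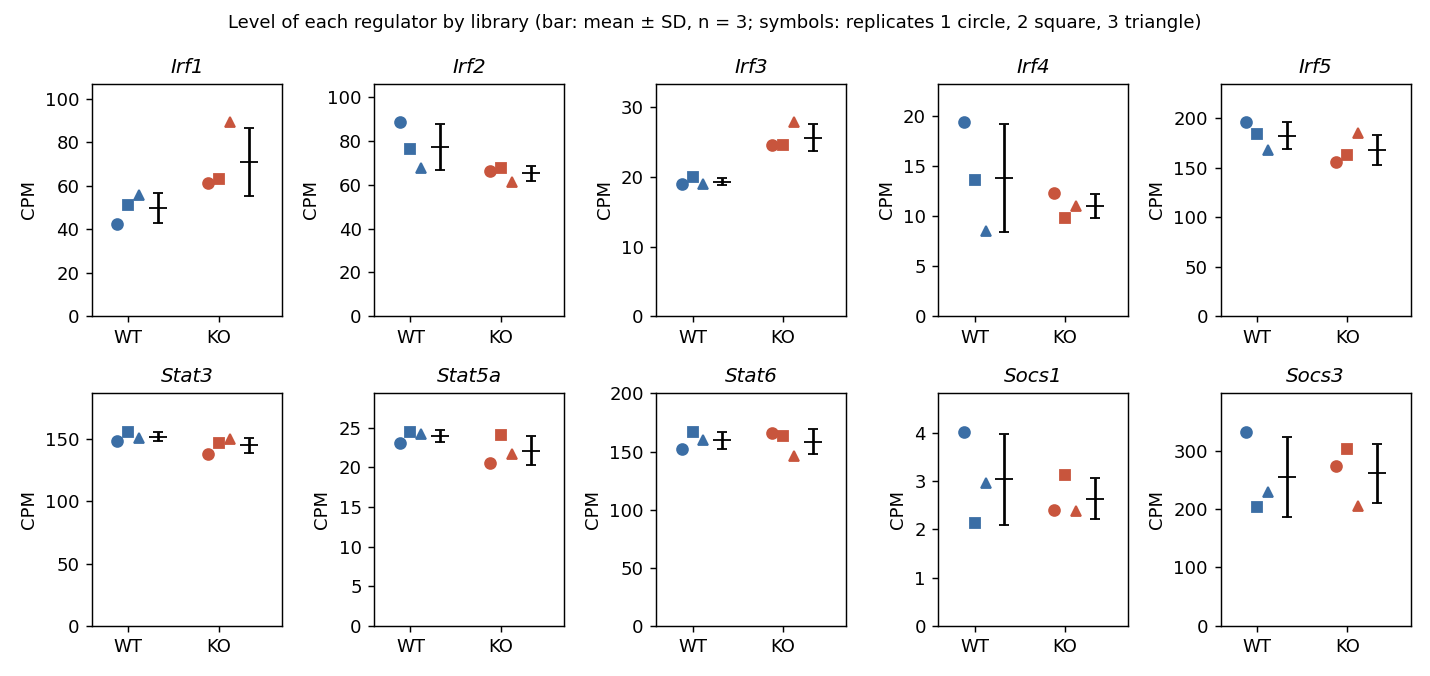
CPM of each regulator in each library, with WT libraries in blue and KO libraries in red, a circle, square and triangle for replicates 1, 2 and 3, and the group mean ± SD (n = 3) as a black bar. Each axis starts at 0, and the groups are separate for Irf1 and Irf3 and overlap for the other 8.

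Irf1, Irf2, Socs1 and Socs3 are shown by sequence because their promoter windows held the sites that STAT and IRF proteins bind. Windows of 250 bases before to 50 bases after each start listed by RefSeq (GRCm38.p6) were found for all 10 genes and searched on both strands for GAS (TTCNNNGAA), for the wider spacing that STAT6 favours (TTC and GAA with 4 bases between) and for ISRE (GAAA, any 2 bases, GAAA). GAS and the wider spacing read the same on both strands. GAS was found in windows of 3 of the 10 genes, against 8.16% of 10018 tested genes with a window. ISRE was found in 2 of 10, against 3.95%, and the wider spacing in 0 of 10, against 6.57%. None of the 3 motifs was found in the windows of Irf3, Irf4, Irf5, Stat3, Stat5a and Stat6. The stretches run 5′ to 3′ on the gene's own strand, with matches in capitals. That of Irf1 covers chr11:53769894-53769962 on the plus strand, with a GAS match that begins 90 bases before the start. That of Irf2 covers chr8:46739495-46739559 on the plus strand, with ISRE and then GAS. For Socs1 it is chr16:10785574-10785649 on the minus strand, with overlapping ISRE matches that begin 83 and 77 bases before the start. For Socs3 it is chr11:117969482-117969550 on the minus strand, with a GAS match, and the start that RefSeq lists there is shared by none of the GENCODE transcripts of Socs3.
Irf1: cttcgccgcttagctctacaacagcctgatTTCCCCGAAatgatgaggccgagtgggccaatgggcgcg
Irf2: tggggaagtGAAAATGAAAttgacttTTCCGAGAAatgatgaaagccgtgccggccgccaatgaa
Socs1: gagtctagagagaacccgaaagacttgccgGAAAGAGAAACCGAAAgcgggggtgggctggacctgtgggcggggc
Socs3: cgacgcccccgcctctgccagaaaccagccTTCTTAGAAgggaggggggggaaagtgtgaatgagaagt
A match is a run of letters and was not tested for binding. Irf1, Irf2 and Socs3, which share the GAS element, had log2 fold changes of 0.51, -0.25 and 0.03, and Irf2 and Socs1, which share the ISRE, had -0.25 and -0.20, with no adjusted p under 0.05 among them.

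Levels of different genes were compared per kilobase of exon. In WT libraries the order from highest to lowest was Socs3, Irf5, Stat6, Stat3, Irf1, Irf2, Irf3, Stat5a, Irf4 and Socs1. Socs3 stood at 88.3 ± 23.6 CPM per kb in WT and 90.5 ± 17.3 in KO (SD, n = 3 each), followed by Irf5 at 62.8 ± 4.85 and 57.7 ± 5.17. Stat6 was at 36.2 ± 1.71 and 35.9 ± 2.48 CPM per kb, above Stat3 at 16.0 ± 0.418 and 15.2 ± 0.703. At the low end, Irf4 was at 2.82 ± 1.11 and 2.26 ± 0.252 CPM per kb and Socs1 at 1.05 ± 0.327 and 0.908 ± 0.148. So the most and the least abundant of the set were the 2 SOCS genes. In WT the library ranges of Irf1 and Irf2 overlapped, as did those of Stat5a and Irf4. By this length these neighbours do not differ beyond their spread. In KO the order was the same but for Irf1, which came before Stat3 at 17.9 ± 3.94 CPM per kb, with overlapping ranges, against 12.5 ± 1.75 and a place after Stat3 in WT. With the longest transcript as the length the WT order was the same, and the ranges of Socs3 and Irf5 then overlapped in both groups. By that length Stat3 and Irf1 overlapped in WT, and Stat5a and Irf4 did not. In KO Irf1 then lay above Stat3 with no overlap, and its range overlapped that of Stat6.

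**Figure D3:**
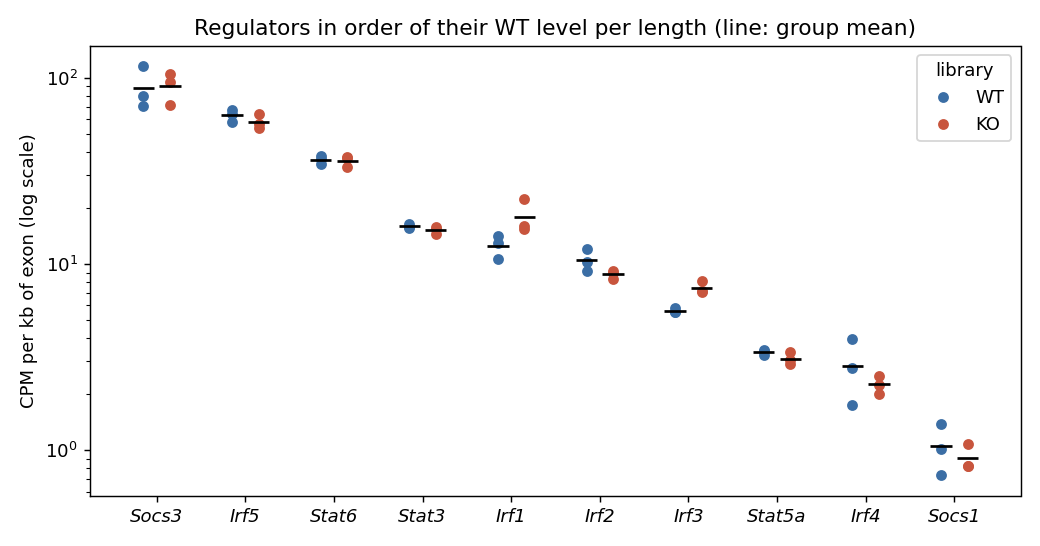
CPM per kilobase of exon (log scale) of the 10 regulators, in order of their WT mean, with 1 point per library (WT blue, KO red) and a line at each group mean. Socs3 leads at 88.3 CPM per kb in WT and Socs1 comes last at 1.05.

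Ratios of counts within a library do not depend on the scaling, and 6 of them were computed for pairs of members picked after their values were seen. The ratio of Irf1 to Irf2, the activator over its antagonist, was 0.478, 0.675 and 0.828 in the WT libraries and 0.921, 0.931 and 1.45 in the KO libraries. The groups did not overlap, and KO replicate 3 was again the highest. The ratio of Irf3 to Irf5 was 0.0972, 0.108 and 0.113 in WT and 0.158, 0.15 and 0.151 in KO, with no overlap and little spread in either group. Both had an exact two-sided permutation p of 0.1, the smallest that 3 against 3 libraries can give, and 0.3 after adjustment over the 6 ratios. No ratio could thus fall under 0.05, and the adjustment does not cover the choice of pairs, so these p-values decide nothing. The ratio of Irf4 to Irf5, factors that compete for the adaptor MyD88, overlapped between groups at 0.0747 ± 0.0241 in WT and 0.0664 ± 0.0110 in KO (SD, n = 3 each, exact permutation p = 0.7). Stat6 to Stat3 stood at 1.05 ± 0.0266 and 1.09 ± 0.12 (exact permutation p = 0.7), Stat5a to Stat3 at 0.158 ± 0.00302 and 0.153 ± 0.00994 (exact permutation p = 0.5), and Socs1 to Socs3 at 0.0118 ± 0.00122 and 0.0102 ± 0.00142 (exact permutation p = 0.2).

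**Figure D4:**
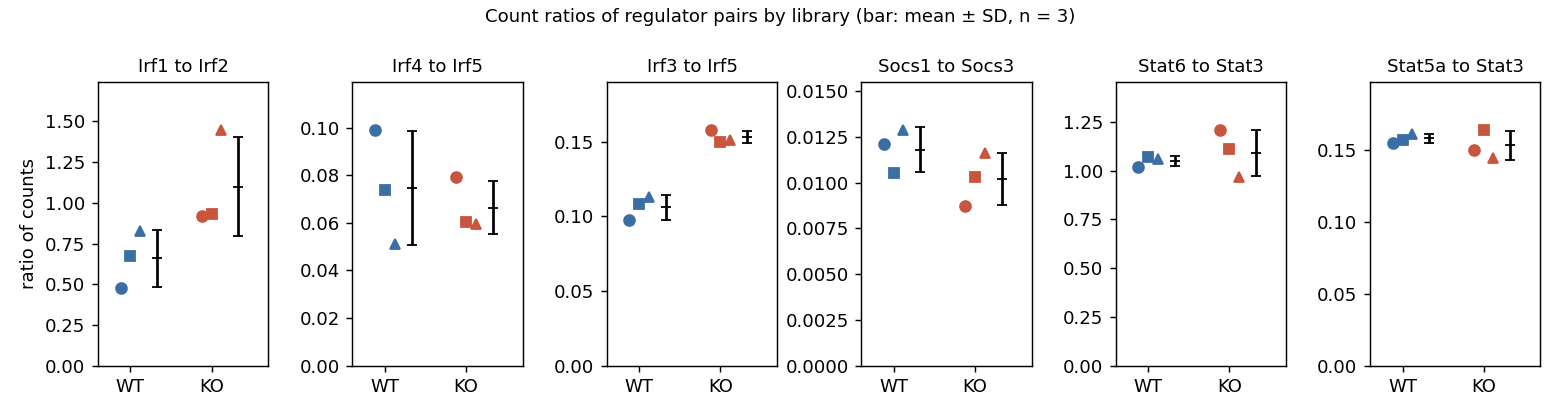
Ratio of the counts of 2 regulators in the same library, with WT in blue and KO in red, a circle, square and triangle for replicates 1, 2 and 3, and the group mean ± SD (n = 3) as a black bar. The groups are separate for Irf1 to Irf2 and for Irf3 to Irf5, which together are 2 of the 6 ratios, and overlap for the other 4.

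Over the 6 libraries, Irf1 and Irf3 followed each other most closely of all pairs of members (Pearson r of log2 CPM 0.888, a description over 6 libraries that share their groups), followed by Irf2 with Irf4 (0.822) and Socs1 with Socs3 (0.807). Irf1 and Irf2 ran opposite to each other (-0.906). Among 8990 genes outside the lists, the closest to Irf1 were Ccdc9 (0.994), Lrsam1 (0.994) and Fnbp1 (0.989), and the closest to Irf3 were Ensa (0.995), Coq9 (0.995) and Snx33 (0.994). With 6 points, 39 genes passed 0.95 for Irf1 and 221 for Irf3.

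Around the 10 regulators, 131 other genes of the cytokine pathways were tested, of which 15 rose and 4 fell in KO (edgeR adjusted p under 0.05), where 6.64% of all tested genes were called. All totals of pathway genes include a target list and a family member that are not reported here. Not all of the called genes are therefore on the lists described. The number of higher genes changed with the library left out. It was 15 without WT replicate 1, 6 without WT replicate 2 and 6 without WT replicate 3. Without KO replicate 1 it was 4, without KO replicate 2 it was 3 and without KO replicate 3 it was 21. Lower genes numbered 3 to 6 in these fits. Over all tested genes the number higher went from 658 to between 154 and 963. With no scaling factor 6 pathway genes were higher and 54 lower, against 300 and 6008 of all tested genes. The median log2 fold change of the pathway genes in the reported fit was 0.15, against 0.01 over all tested genes. The lists were written with earlier results of these data known, and Chil3, Fn1, Tnf, Clec10a and Ccl5, among others, had been seen to differ.

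Few ligands of these receptors were measured in the sorted cells. Of 18 ligand genes, 9 passed the filter, while Ifng, Ifnb1, Il13 and Csf2 were at no more than 0.116 CPM in any library. Il10, the cytokine that signals through STAT3 to dampen macrophages, was at 5.74, 20.7 and 28.6 CPM in WT and at 15.6, 16.8 and 31.2 CPM in KO. The groups overlapped, and WT replicate 1 was the lowest. Il6, with means of 0.947 ± 0.562 and 0.352 ± 0.0876 CPM (SD, n = 3 each), was too low for a firm value. The 1 ligand that rose was Tslp, which signals to STAT5 and was itself at no more than 1.93 CPM (log2 fold change 2.91, edgeR adjusted p = 0.019). The call ended in 5 of the 6 fits that each leave out a library and held without KO replicate 3 (edgeR adjusted p of up to 0.073).

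Of 21 tested receptor genes 2 rose and none fell, where 6.64% of all tested genes were called. Il2rg, the common gamma chain of the IL-4 receptor and others, went from 20 ± 1.85 to 32.1 ± 5.78 CPM (SD, n = 3 each, log2 fold change 0.68, edgeR adjusted p = 0.047), and Lifr, the receptor chain for LIF that pairs with gp130, from 45.1 ± 8.51 to 72.5 ± 2.75 CPM (log2 fold change 0.68, edgeR adjusted p = 0.034). Il2rg kept its call only without KO replicate 3 (edgeR adjusted p of up to 0.23 in the other 5 leave-outs), and Lifr lost its own without WT replicate 1, WT replicate 2, KO replicate 1 or KO replicate 2 (edgeR adjusted p of up to 0.15). The other named receptor chains had no edgeR adjusted p under 0.05. Il4ra was at 212 ± 17.1 and 257 ± 15.8 CPM, Il6st, which encodes gp130, at 109 ± 11.1 and 107 ± 5.04, and Il10ra at 156 ± 49.9 and 225 ± 42.7 CPM (SD, n = 3 each). The chains Ifngr1 and Ifngr2 were at 167 ± 47.6 and 233 ± 13.8 CPM and at 101 ± 14.1 and 108 ± 10.9 CPM, in the same order of groups. Log2 fold changes of Il13ra1, Il6ra, Il10rb, Csf2ra and Csf2rb were 0.26, 0.35, 0.14, -0.26 and -0.10. Chosen after their values were seen, Il21r was at 29.5 ± 6.20 and 49.1 ± 8.28 CPM (edgeR adjusted p = 0.054) and Il7r at 61.1 ± 13.2 and 38.3 ± 4.37 CPM (edgeR adjusted p = 0.055), both with separate groups (SD, n = 3 each).

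Among the 4 kinases, Jak3, the partner of the common gamma chain, rose from 18.1, 24.4 and 21.3 CPM in the 3 WT libraries to 39.6, 48.3 and 48.9 CPM in the 3 KO libraries. Every KO library was well above every WT library. The log2 fold change was 1.10 (SE 0.16, edgeR adjusted p = 0.0082), and the call held in all 6 leave-outs (edgeR adjusted p of up to 0.049), in a range of 1.2e-06 to 0.060 over all alternatives. Jak1, Jak2 and Tyk2 were at log2 fold changes of 0.16, -0.29 and 0.38, none with an adjusted p under 0.05.

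Among the other IRF, STAT and SOCS genes and the IRF cofactors, 1 of 16 tested genes rose and none fell, a share near the 6.64% of all tested genes. The gene that rose was the cofactor Irf2bp1, which encodes a corepressor that binds IRF2, so no IRF, STAT or SOCS gene itself was called. Its mean went from 14.9 ± 2.05 to 25.1 ± 3.11 CPM (SD, n = 3 each, log2 fold change 0.76, edgeR adjusted p = 0.032). Leaving out WT replicate 2, WT replicate 3, KO replicate 1 or KO replicate 2 ended the call (edgeR adjusted p of up to 0.15). Irf8, a factor of the monocyte lineage, was at 179 ± 46.8 and 264 ± 29.7 CPM (edgeR adjusted p = 0.13). Irf7, which type I interferon induces, was at 12.4, 50.2 and 79.2 CPM in WT and at 179, 188 and 151 CPM in KO (edgeR adjusted p = 0.064). The KO libraries lay above all WT libraries, and WT replicate 1 was far below the other WT libraries. Stat2, Stat4, Stat5b and Irf9 had log2 fold changes of 0.48, -0.83, 0.18 and 0.28. The cofactors Irf2bp2 and Irf2bpl were at 0.47 and -0.62. Of the other SOCS genes, Cish, a STAT5 target and inhibitor, was at 2.39 ± 1.34 and 1.08 ± 0.376 CPM (log2 fold change -1.15), while Socs2, Socs4, Socs5, Socs6 and Socs7 lay between -0.11 and 0.24. None of 10 further inhibitors of the pathway, such as the phosphatases Ptpn6 and Ptpn1, was called by the reported edgeR fit or by DESeq2. In the reported fit 2 had an unadjusted p under 0.05 and limma-voom called 2 higher, against 23.5% and 32.4% of all tested genes. Without KO replicate 3 edgeR called 1 of these inhibitors higher, against 963 of all genes. With no scaling factor it called 5 lower, against 6008 of all genes. Of 13 kinases and adaptors that activate IRFs, Slc15a4, a lysosomal transporter that anchors the IRF5 adaptor TASL, rose from 63.8 ± 4 to 95.7 ± 5.76 CPM (SD, n = 3 each, log2 fold change 0.58, edgeR adjusted p = 0.024). Leaving out WT replicate 2, WT replicate 3, KO replicate 1 or KO replicate 2 ended the call (edgeR adjusted p of up to 0.13), and its log2 fold change was -0.03 with no scaling factor.

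The target genes of these factors moved in different directions. Of 14 tested genes on the STAT6 and IL-4 list, Clec10a rose and Chil3, Fn1 and Klf4 fell. Klf4, a factor that works with STAT6, went from 267, 142 and 180 CPM in WT to 69.9, 82.7 and 89.7 CPM in KO (log2 fold change -1.28, edgeR adjusted p = 0.015), a call lost without KO replicate 1 or 2 (edgeR adjusted p of up to 0.068). On this list 8 of 14 had an unadjusted p under 0.05, against 23.5% of all tested genes, of which 6.64% were called. Arg1, the arginase of alternatively activated mouse macrophages, was at 192, 42.4 and 47.5 CPM in WT and at 16.4, 17.9 and 27.9 CPM in KO (log2 fold change -2.18, edgeR adjusted p = 0.052). Retnla, another gene that IL-4 induces in mice, was at 2.87, 1.07 and 0.411 CPM in WT and at 8, 7.13 and 2.9 CPM in KO (log2 fold change 2.08, edgeR adjusted p = 0.089). The groups of both were separate, on opposite sides, and WT replicate 1 was the highest WT library for each. Egr2 and Pparg, which IL-4 also induces, had overlapping groups at 74.9 ± 1.71 and 76.5 ± 5.63 CPM and at 21.7 ± 2.30 and 22.5 ± 2.08 CPM (SD, n = 3 each). Of 17 STAT3 and IL-10 targets the reported edgeR fit called none, and 4 had an unadjusted p under 0.05, a share near that of all tested genes. The groups did not overlap for 9 of the 17, against 31.5% of all tested genes. With no count filter edgeR called 1 higher and 4 lower, against 1034 and 923 of 32474 genes. Without WT replicate 1 or KO replicate 3 it called 1 higher, against 437 and 963 of all genes. With no scaling factor it called 10 lower, against 6008 of all genes. DESeq2 called 1 higher and 3 lower and limma-voom 2 higher and 3 lower, where they called 10.1% and 32.4% of all genes. Among these 17, the kinase gene Pim1 was at 258 ± 84.4 and 158 ± 7.92 CPM and Sbno2, a repressor downstream of IL-10, at 154 ± 8.31 and 171 ± 12.6 CPM (SD, n = 3 each). None of 9 STAT5 targets was called by the reported edgeR fit either, with a median log2 fold change of -0.61 and 5 unadjusted p-values under 0.05. Lower STAT5 targets numbered 2 by DESeq2 and 3 by limma-voom, which called 10.1% and 32.4% of all genes in both directions together. They numbered 4 by edgeR with no count filter, where 923 of 32474 genes were called lower. With no scaling factor 7 STAT5 targets were called lower, as were 6008 of all 14987 genes, with a median of all genes of -0.60. Of 6 tested IRF5 targets, Cd40, a costimulatory receptor, and Ccl5 rose and Tnf fell, while Il12a, Il12b and Il23a were too low to test. Il1b, Il6 and Ccl4 were tested too, with log2 fold changes of -1.16, -1.40 and -0.14 and no adjusted p under 0.05. The median of this list was -0.61. Cd40, at a log2 fold change of 0.78, lost its call in 5 leave-outs, with KO replicate 3 the exception (edgeR adjusted p of up to 0.12), and Ccl5, at 2.26, in 4 leave-outs, with WT replicate 1 and KO replicate 3 the exceptions (up to 0.17). On the IRF4 list, the class II transactivator Ciita was the 1 gene called, with means of 19.0 ± 7.81 and 49.2 ± 12.4 CPM (SD, n = 3 each, log2 fold change 1.38, edgeR adjusted p = 0.037). Its call ended without WT replicate 2 or any 1 KO library (edgeR adjusted p of up to 0.097). On the same list, Kdm6b, the demethylase upstream of Irf4, was level at 225 ± 40.5 and 226 ± 41.1 CPM (SD, n = 3 each).

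**Figure D5:**
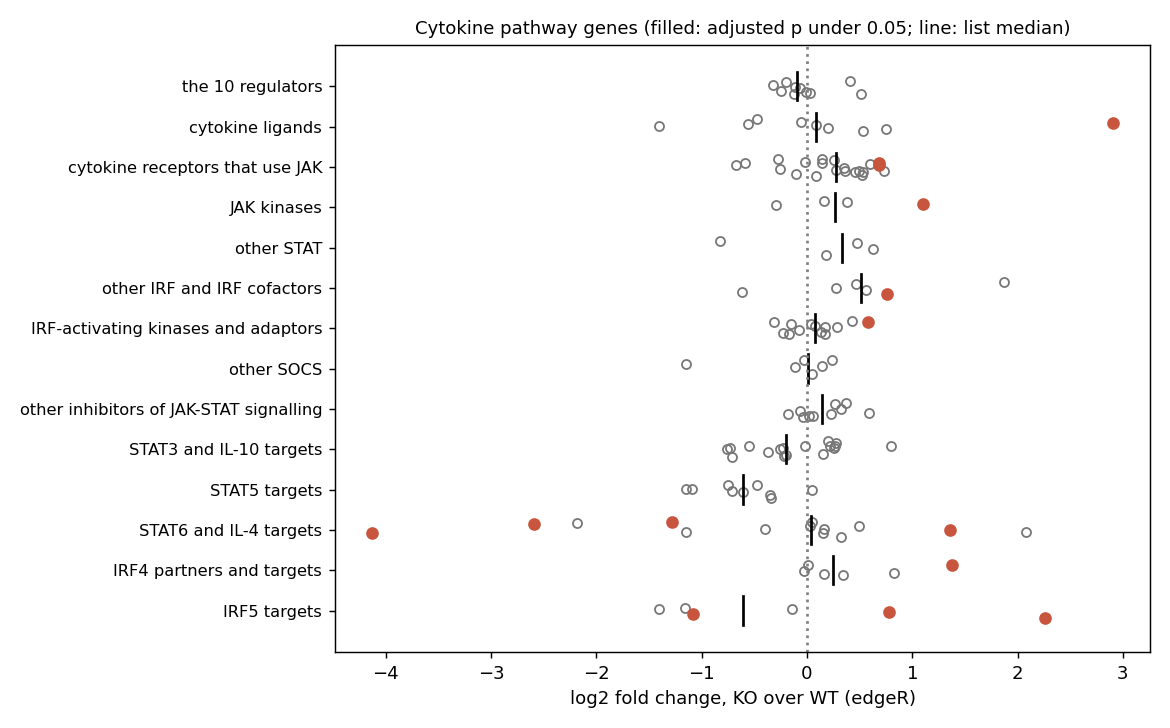
Log2 fold change of KO over WT (edgeR) for the 10 regulators and for the tested genes of 13 pathway lists without them, with 1 point per gene, filled where the adjusted p was under 0.05, and a line at each median. The regulators lie between -0.32 and 0.51 with no filled point, and the STAT5 and IRF5 lists each have a median of -0.61.

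Markers of other cells moved in these bulk libraries, in which fewer cells of a type and less RNA per cell cannot be told apart. Markers are counted as higher or lower at an edgeR adjusted p under 0.05, which 6.64% of all tested genes had. T and NK cell markers summed to 0.247 to 0.969 CPM in WT and 0.516 to 1.78 CPM in KO, with Trbc2 at 0 in all libraries, and none of 10 could be tested. Of 9 tested dendritic cell markers, where Irf4 is also expressed, Fscn1 rose, and the sum of all 10 was 57.5 to 144 CPM in WT and 151 to 204 CPM in KO, most of it Itgax. Of 3 tested B and plasma cell markers Ighm rose, with Mzb1 at 0 and sums of 93.6 to 121 and 117 to 122 CPM, most of it Xbp1 and Ighm. Neutrophil markers, with Ly6g at 0 and 2 of 5 tested genes lower, summed to 46.5 to 85.9 and 43.4 to 73.7 CPM, most of it Csf3r. The lower genes were Cd177, with means of 5.04 and 0.167 CPM, and Mmp8, with 10.7 and 2.33 CPM. Of 8 tested fibroblast markers 5 rose, with sums of 14.0 to 43.0 and 159 to 212 CPM, and of 9 tested muscle markers 5 rose, with sums of 10.1 to 12.6 and 53.8 to 79.8 CPM. Of 10 tested endothelial markers 3 fell, with sums of 64.3 to 98.8 and 24.8 to 49.0 CPM. Their part in the levels of the 10 regulators and of the pathway genes was not tested.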

How the data were processed

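RNA of sorted muscle macrophages was sequenced as 6 low-input libraries. The authors deposited 1 table of raw read counts per gene, with 55353 rows and 1 column per library. The submitters' processing notes name GRCm38 as build and list FastQC, Trim Galore, featureCounts, HISAT2 and DESeq with no versions. Strand setting and annotation: not given in the sources used here. The 26 rows whose symbol had become a date were left out.

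Groups came from the genotype label. Counts were scaled with TMM (factors of 0.713 to 1.26), filtered with filterByExpr and tested with the quasi-likelihood test of edgeR 4.0.16 in R 4.3.3, KO against WT, two-sided, with Benjamini-Hochberg adjustment over all 14987 genes and a threshold of 0.05. The SE is the log2 fold change over the root of the F statistic, and intervals use the test's degrees of freedom. The procedure was tested on simulated data. No 2 libraries agreed within sampling noise (chi-square per degree of freedom of at least 37.7). Same-numbered libraries did not deviate together (r of 0.0206, -0.0623 and -0.092, against -0.0764 to 0.0987 for the other pairs). The reported fit therefore pairs nothing, though with 3 libraries per group this check cannot exclude a shared batch.

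Positions and exon lengths are from GENCODE M21 and promoter windows from RefSeq. Protein sequences were not analysed here. Alternatives were DESeq2 1.42.0, limma-voom (limma 3.58.1), other scalings, filters, gene sets, terms and left-out libraries. Pathway genes were named where called (up to 3 per direction and list, plus further called genes), and in the JAK, IRF, STAT, SOCS and main receptor lists whatever their result; other pathway genes were chosen after their values were seen. Members and lists were chosen with earlier results of these data known. One family member and one target list are not reported here.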

Additional observations from a re-analysis of the deposited data

How the results depend on the processing

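Of 170 member values over 17 alternatives, 159 stayed on the same side of the threshold as reported, and no member was called in 14 of the 17. Limma-voom with sample weights called 3 members higher (Irf1, Irf3 and Socs3). A sex term called 1 higher (Irf1, log2 fold change 0.84, adjusted p = 0.029), where KO replicate 3 alone carries the contrast with the male WT libraries. Library sizes with no scaling factor called 7 members lower, with a median of all genes of -0.60 and of the members of -0.71, and turned Socs3 to -0.59, Ifngr2 to -0.52, Il10rb to -0.48 and Slc15a4 to -0.03. Counts of pathway genes higher and lower were 15 and 4 as reported, 6 and 54 with no scaling factor, 24 and 16 with no count filter, 38 and 18 by limma-voom, 20 and 11 by DESeq2, 5 and 3 with KO replicates 1 and 2 added up, 1 and 1 with both left out, 4 and 3 with the replicate block and 16 and 7 among protein-coding genes. Over all genes the counts were 658 and 337 as reported, 300 and 6008 with no scaling factor, 1034 and 923 with no count filter, 2601 and 2249 by limma-voom, 977 and 707 by DESeq2, 220 and 62 with KO replicates 1 and 2 added up, 101 and 48 with both left out, 794 and 701 with the sex term and 206 and 61 with the replicate block, which called 0 members. Leaving out 1 library gave 3 to 21 pathway genes higher and 3 to 6 lower, and 154 to 963 of all genes higher and 35 to 689 lower, with the lowest counts over all genes without KO replicate 2 and the highest without KO replicate 3. The cause of these shifts was not tested. The comparison of protein sequences that had been planned was not run. Depth limits Socs1 most, at 37 to 104 counts per library.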
